A study of Bos taurus with 6 samples.

Results

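The small leucine-rich proteoglycans (SLRPs) and related matrix proteins with leucine-rich repeats were described in sorted cells of cow (Bos taurus) endometrium, the side population (SP) and the main population (MP). Members were chosen by gene symbol: DCN, LUM, BGN, FMOD, OGN, ASPN, PRELP, OMD, PODN and ECM2. All 10 were found, each as 1 of the 34733 named genes in every library. Both groups came from healthy uteri in the luteal phase, collected at slaughterhouses, and from a stromal cell preparation made with collagenase from endometrium between the caruncles after the luminal epithelium had been removed. Cells were sorted by the DNA dye Hoechst, which SP cells pump out and MP cells retain, and dead cells were excluded with propidium iodide. There were 3 SP and 3 MP libraries of poly(A) RNA; breed, age and the number of animals behind a library are not in the labels. Values of 3 libraries are given in the order of their replicate numbers, 1 to 3. Whether replicates are separate animals is not in the labels either, so the spread behind each p-value is that of these samples alone and may be technical.

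SLRPs are secreted proteins whose curved core of leucine-rich repeats binds collagen fibrils, and they set how fibrils form, how thick they grow and how they are spaced. Many carry a glycosaminoglycan chain, chondroitin or dermatan sulfate on decorin and biglycan and keratan sulfate on fibromodulin and lumican, and several bind growth factors such as TGF-beta or act on cell surface receptors. In connective tissue they are made mainly by fibroblasts and smooth muscle cells, and decorin is a standard marker of the stromal fibroblast.

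The unit is FPKM, which corrects fragment counts for transcript length and for library size, so levels of different genes can be set beside each other. Counts are not used here; the ratio of the lowest values put the depth of SP replicates 2 and 3 at 1.60 and 1.83 times that of SP replicate 1, and of MP replicates 1 to 3 at 2.33, 3.19 and 2.00 times, so every SP library was the shallower. The number of libraries and this depth limit the precision. Only the MP libraries have the word micro in their column headers, with no explanation, and a difference in handling that it might mark cannot be told apart from the population. The labels' protocols name a micro column kit for the RNA of the sorted cells, and whether the word refers to it is not stated. Of 12127 genes tested, 39.2% were called, 2490 of them higher and 2269 lower in SP (limma on log2(FPKM + 1), Benjamini-Hochberg adjusted p under 0.05). Here rose means called higher and fell called lower.

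As a group the SLRPs were lower in SP. Of the 9 tested, 8 fell, none rose and ASPN did not pass; OMD, near 0.3 FPKM in most libraries, was under the filter of 1 FPKM in at least 3 libraries. The 9 tested members reached 1 FPKM in all 6 libraries, so the filter fixed no direction. Over all tested genes 18.7% were called lower in SP and 26.5% had every SP value below every MP value, as the same 8 members had. The median log2 fold change of the 9 was −2.17, against 0.01 over all tested genes. Together the 10 members held 0.0237%, 0.0302% and 0.0557% of all FPKM in the SP libraries, and 0.869%, 0.515% and 0.212% in the MP libraries. All FPKM includes 13 mitochondrially encoded genes, so these percentages depend on them too. Among them ATP6 and ATP8 had log2 fold changes of 12.93 and 13.74, and the source of differences this large was not tested. In bulk samples fewer cells of a type and less RNA per cell cannot be told apart, and the tested markers of the stromal fibroblast, a list without SLRPs, fell too (11 of 12, median −3.14; DPT, HAND2 and PI16 were under 1 FPKM in every SP library, so the filter fixed their direction). With both libraries of replicate number 1 or of number 2 left out, 5 and 1 members passed, while the calls over all genes went from 4759 to 763 and 351.

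**Figure D1:**
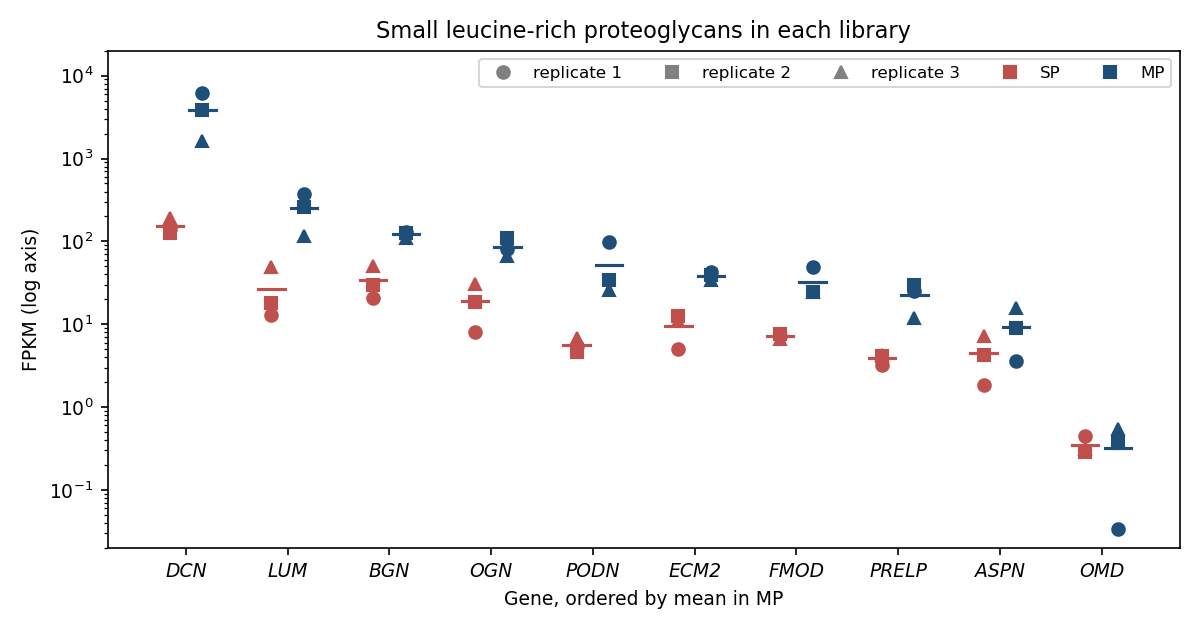
FPKM of each SLRP (log axis) in the 3 SP (red) and 3 MP (blue) libraries; symbols mark the replicate number and short lines the group mean. The SP points lie below the MP points for 8 genes and overlap with them for ASPN and OMD.

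DCN encodes decorin, the SLRP with a single dermatan or chondroitin sulfate chain that binds collagen fibrils and TGF-beta (chromosome 5, 21014373 to 21053400, build ARS-UCD1.2). It was at 141, 126 and 194 FPKM in the SP libraries against 6200, 3815 and 1635 FPKM in the MP libraries. All SP values were low and close together, whereas MP replicate 1 was 3.79 times MP replicate 3, and the lowest MP value still lay far above the highest SP value. The mean in MP was 25.3 times that in SP, the largest ratio among the members. By level DCN ranked 12th, 34th and 102nd among all named genes in the MP libraries, and 717th, 717th and 405th in the SP libraries. Its log2 fold change was −4.48 ± 0.47 (SE; 95% interval −5.56 to −3.39; limma adjusted p = 0.00133), and it passed in all 20 alternatives (adjusted p from 0.000616 to 0.0436).

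BGN encodes biglycan, the close relative of decorin with a pair of chains, which also signals through Toll-like receptors when released (chromosome X, 36728447 to 36742281). It was at 20.8, 29.6 and 51.1 FPKM in the SP libraries against 131, 125 and 109.6 FPKM in the MP libraries. Its MP values differed by 1.2 times from lowest to highest, the narrowest MP spread among the members, and its SP values by 2.46 times. Its log2 fold change was −1.91 ± 0.33 (SE; 95% interval −2.67 to −1.15; limma adjusted p = 0.00573), the smallest among the 8 members that fell.

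ASPN encodes asporin, a relative of decorin that lacks the usual chain, carries a stretch of aspartates and binds TGF-beta. ASPN was at 1.87, 4.26 and 7.26 FPKM in the SP libraries against 3.58, 8.91 and 15.6 FPKM in the MP libraries. The groups overlapped: MP replicate 1 lay below SP replicates 2 and 3, and both groups were lowest in replicate 1. The log2 fold change of −0.87 ± 0.54 (SE) did not pass (limma adjusted p = 0.227), and its 95% interval ran from −2.12 to 0.38, which leaves room for a fall as large as that of BGN. In MP, asporin was lowest in the library where DCN, LUM, FMOD and PODN were highest.

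LUM encodes lumican, a keratan sulfate proteoglycan that keeps collagen fibrils thin and evenly spaced (chromosome 5, 20971292 to 20980825). It was at 13.0, 18.0 and 48.6 FPKM in the SP libraries against 376, 261 and 117 FPKM in the MP libraries. SP replicate 3 stood above the other SP libraries and MP replicate 3 below the other MP libraries, yet they did not meet. The mean in MP was 9.46 times that in SP, and the log2 fold change was −3.26 ± 0.56 (SE; 95% interval −4.56 to −1.95; limma adjusted p = 0.00576).

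FMOD encodes fibromodulin, which binds the same collagen site as lumican and also guides collagen cross-linking (chromosome 16, 1122158 to 1136577). It was at 7.30, 7.63 and 6.71 FPKM in the SP libraries, a spread of 1.14 times, against 49.0, 24.2 and 24.4 FPKM in the MP libraries. MP replicate 1 alone stood high within its group. On the log2 scale FMOD differed by −1.95 ± 0.31 (SE; limma adjusted p = 0.00438).

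PRELP, a member with a basic, arginine- and proline-rich start that anchors matrix to basement membranes (chromosome 16, 1238686 to 1252743), was at 3.21, 4.12 and 4.29 FPKM in the SP libraries against 25.0, 30.0 and 12.0 FPKM in the MP libraries. The SP values were again tight and the MP values wide, with no overlap. On the log2 scale PRELP differed by −2.17 ± 0.35 (SE; limma adjusted p = 0.00461).

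OMD, osteomodulin or osteoadherin, a keratan sulfate proteoglycan known from bone, was at 0.443, 0.285 and 0.314 FPKM in the SP libraries against 0.0337, 0.366 and 0.551 FPKM in the MP libraries. It was the lowest member in all 6 libraries, and the groups overlapped (p = 0.9 by exact permutation of the libraries, two-sided). After scaling by relative depth the other libraries held 5.64 to 14.9 times the amount in MP replicate 1, and no difference between the groups was found at this depth. With no filter on low values it was tested and not called.

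OGN encodes osteoglycin, also called mimecan, which takes part in collagen fibril growth. It was at 8.09, 18.7 and 30.7 FPKM in the SP libraries against 81.6, 109 and 67.3 FPKM in the MP libraries. The highest SP value was below the lowest MP value, and the spread was wider in SP (3.80 times) than in MP (1.62 times). On the log2 scale OGN differed by −2.26 ± 0.45 (SE; limma adjusted p = 0.00842).

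PODN encodes podocan, a collagen-binding member known to restrain smooth muscle growth (chromosome 3, 93157910 to 93183254). It was at 5.45, 4.56 and 6.91 FPKM in the SP libraries against 97.7, 34.0 and 25.8 FPKM in the MP libraries. MP replicate 1 was 3.79 times MP replicate 3, the same ratio as for DCN. The log2 fold change was −2.78 ± 0.47 (SE; limma adjusted p = 0.00531).

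ECM2, extracellular matrix protein 2, has leucine-rich repeats like those of decorin. It was at 5.06, 12.7 and 11.0 FPKM in the SP libraries against 42.5, 39.0 and 34.3 FPKM in the MP libraries. Its MP spread of 1.24 times was nearly as narrow as that of BGN. The log2 fold change was −1.98 ± 0.33 (SE; limma adjusted p = 0.00531).

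**Figure D2:**
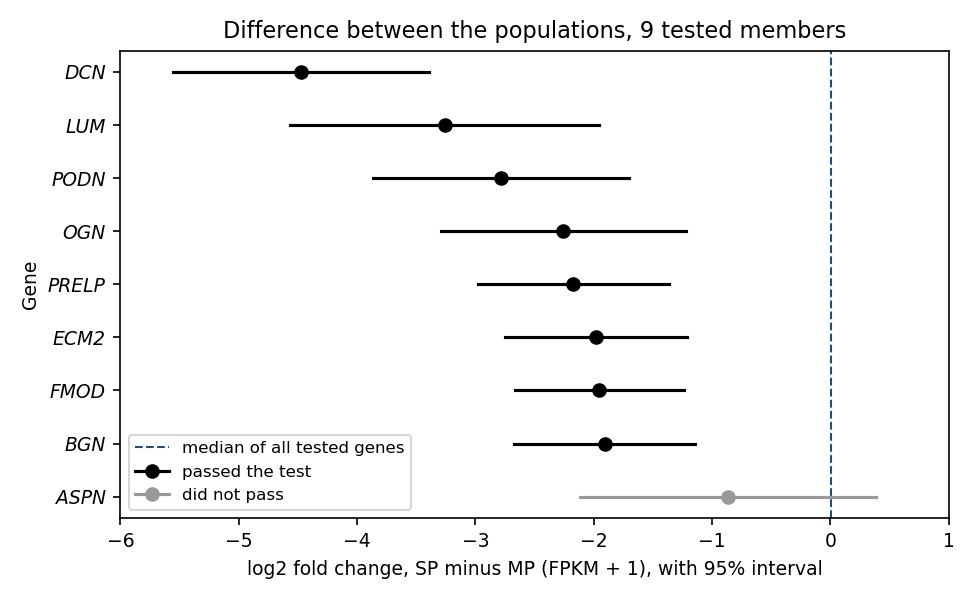
Log2 fold change (SP minus MP, on FPKM + 1) of the 9 tested SLRPs with its 95% interval; black passed the test and grey did not, and the dashed line is the median of all tested genes. DCN lies farthest from 0 at −4.48, and only the interval of ASPN spans 0.

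The order of levels was headed by DCN in both populations. In MP it was followed by LUM, BGN, OGN, PODN, ECM2, FMOD, PRELP, ASPN and OMD, and in SP by BGN, LUM, OGN, ECM2, FMOD, PODN, ASPN, PRELP and OMD. Among neighbours in this order, the ranges over 3 libraries parted DCN from LUM, BGN from OGN and ASPN from OMD in MP, and DCN from BGN and PRELP from OMD in SP. All other neighbours overlapped in range. Within single libraries LUM still lay above BGN in every MP library, and BGN above LUM and OGN above ECM2 in every SP library. For LUM and BGN the margin was narrow in replicate 3 of both groups. The order of the remaining overlapping neighbours is not fixed by these libraries.

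The make-up of the SLRP transcripts differed between the populations. DCN took 68.4%, 55.7% and 53.8% of the FPKM summed over the 10 members in the SP libraries, and 88.5%, 85.8% and 80.1% in the MP libraries. Its mean share was 59.3% ± 7.95 in SP and 84.8% ± 4.28 in MP (SD, n = 3 each; exact two-sided permutation test, p = 0.1, the smallest that 3 against 3 allows). BGN held 10.1%, 13.1% and 14.2% in SP and 1.87%, 2.81% and 5.37% in MP. The other 8 members also had higher shares in every SP than in every MP library, which a lower share of DCN in part forces.

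Set against DCN itself, the pattern was the same for each member. DCN was 6.79, 4.24 and 3.80 times BGN in SP and 47.2, 30.6 and 14.9 times BGN in MP. It was 10.8, 6.98 and 3.99 times LUM in SP and 16.5, 14.6 and 14.0 times LUM in MP. Relative to PODN it was 25.9, 27.5 and 28.1 times in SP, values within a narrow band, and 63.5, 112 and 63.4 times in MP. On the log2(FPKM + 1) scale all 9 ratios to DCN were higher in every SP than in every MP library, by 1.22 for LUM to 4.53 for OMD (exact two-sided permutation p = 0.1 for each, and 0.1 after Benjamini-Hochberg adjustment over the 9). Since DCN had the largest difference of the members, mean ratios to it are higher in SP by construction, and that of OMD, near 0 on this scale throughout, is mostly the difference of DCN itself. With DCN left out of the sum, only BGN and OMD still had non-overlapping shares (exact two-sided permutation p = 0.1, and 0.45 after Benjamini-Hochberg adjustment). BGN was at 31.9%, 29.6% and 30.6% in SP and 16.3%, 19.8% and 27.0% in MP, and the shares of LUM and PODN were then lower in SP, at mean differences of −16.5 and −2.27 percentage points, with overlapping groups.

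**Figure D3:**
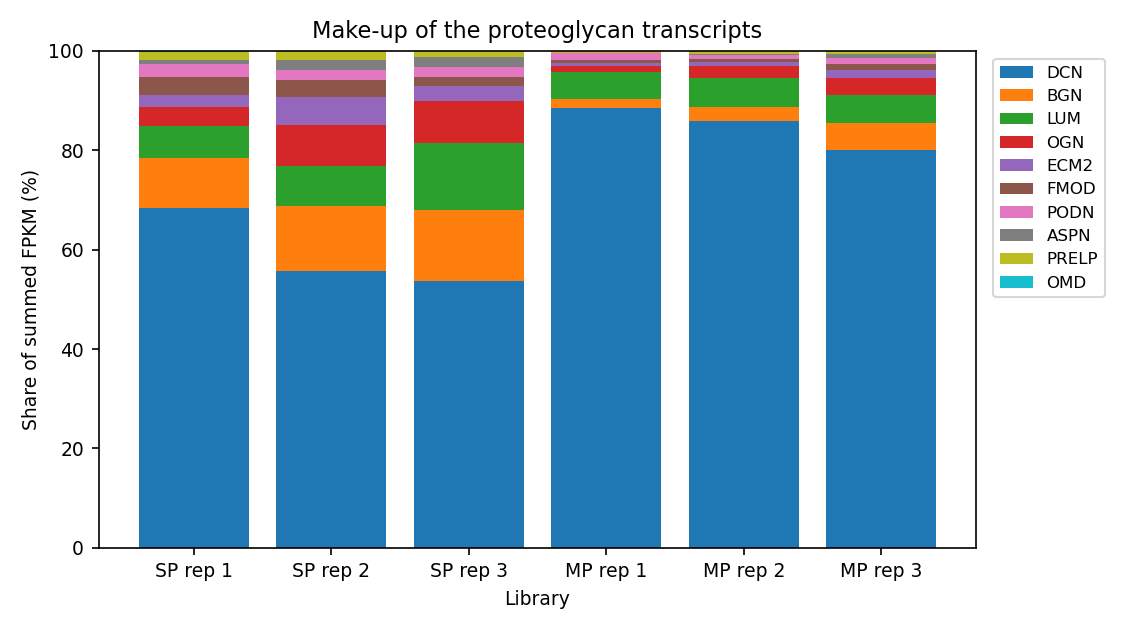
Share of each SLRP in the FPKM summed over the 10 members, in percent, for each library as a stacked bar. DCN fills 53.8% to 68.4% of the bar in SP and 80.1% to 88.5% in MP, and BGN is the next largest part in every SP library.

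The stromal fibroblast markers PDGFRA, COL1A2, COL3A1, DPT, FBLN1, MMP2, PCOLCE, TCF21, HAND2, MFAP5 and PI16 fell like most SLRPs, COL1A1 of the same list did not pass, and their part in the result was not tested. Their summed level ran from 150.2 to 259 FPKM in SP and from 1148 to 5302 FPKM in MP, and none of them was at 0 in a whole group. Of 9 tested pericyte and smooth muscle markers 5 fell and none rose (sum 337 to 537 FPKM in SP, 1189 to 1969 FPKM in MP), and of 12 leukocyte markers 11 fell, 6 of them under 1 FPKM in every SP library (sum 102 to 108 and 739.7 to 1617 FPKM). Most of the leukocyte sum in SP came from CD14, the marker that did not pass (mean 97.6 FPKM in SP and 63.7 FPKM in MP). Of 9 endothelial markers 8 rose (sum 1155 to 1703 FPKM in SP and 102 to 678 FPKM in MP), highest within MP in replicate 3, the library with the lowest DCN and LUM. None of 7 epithelial markers passed (sum 162 to 1568 and 874 to 3982 FPKM). Beside these counts, 18.7% of all tested genes were called lower and 20.5% higher in SP.

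The level of each SLRP was also taken relative to the mean log2(FPKM + 1) of the 12 fibroblast markers, which stood at 2.59, 2.38 and 3.10 in SP and 6.95, 5.29 and 5.27 in MP. DCN lay above the marker mean by 4.56, 4.61 and 4.50 in SP and by 5.64, 6.61 and 5.40 in MP, so it was lower in SP by 1.33 log2 units on this scale too, and by 0.62 at a pseudocount of 0.1. BGN lay above it by 1.86, 2.56 and 2.60 in SP and by 0.09, 1.69 and 1.51 in MP, so it was higher in SP by 1.24. FMOD, PODN, ASPN and OMD were likewise higher in every SP library than in every MP library on this scale, by 1.2, 0.37, 2.28 and 3.20, where the value of OMD, which is near 0 on the log2(FPKM + 1) scale throughout, is by construction mostly that of the markers. OGN, PRELP and ECM2 were higher in SP on average with overlapping groups, and LUM differed by −0.11 with overlap. At a pseudocount of 0.1 BGN, FMOD, PODN, ASPN and OMD stood at 1.92, 1.78, 0.90, 2.84 and 4.23, LUM at 0.55, and OGN, PRELP and ECM2 at 1.53, 1.46 and 1.77, so the size of each depends on the pseudocount. For the 6 members without overlap at a pseudocount of 1 the exact two-sided permutation p was 0.1, the smallest possible, and 0.167 after Benjamini-Hochberg adjustment over the 10. Within MP the fibroblast marker sum varied by 4.62 times, DCN by 3.79 times, and BGN and ECM2 by 1.2 and 1.24 times.

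**Figure D4:**
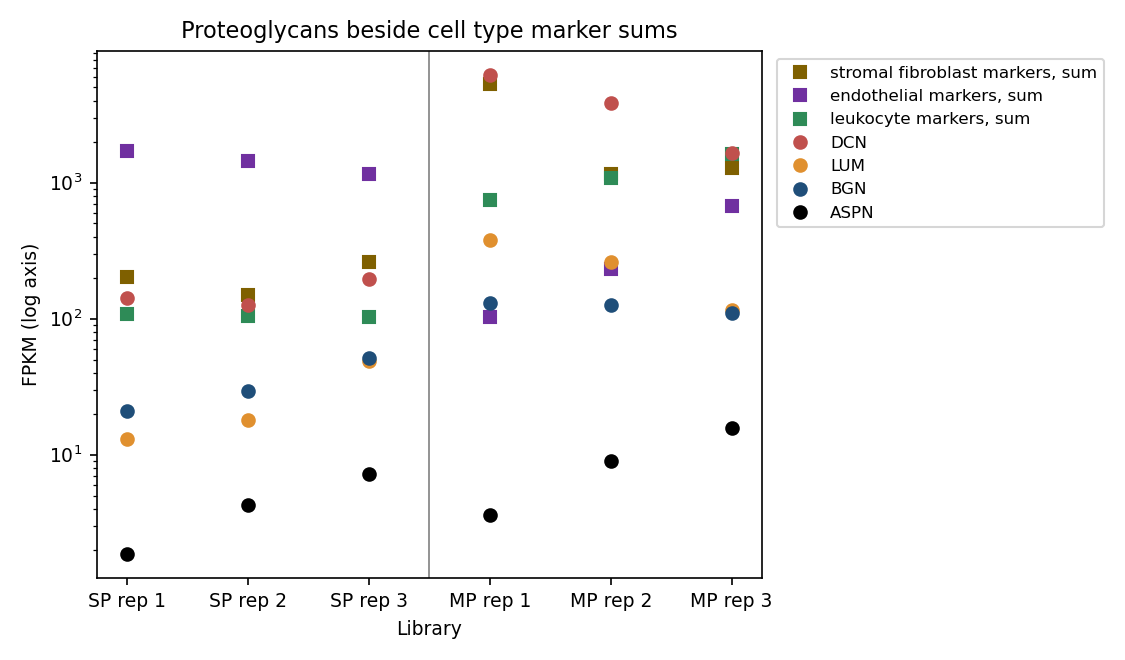
FPKM (log axis) of DCN, LUM, BGN and ASPN (circles) and summed FPKM of 3 cell type marker lists (squares) in each library, with a vertical line between SP and MP. DCN, LUM, BGN and the fibroblast sum are higher in every MP library, the endothelial sum is higher in every SP library, and ASPN overlaps between the groups.

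Most members lie in groups on the cow genome. LUM and DCN are neighbours on chromosome 5, with the related gene KERA beside them, FMOD and PRELP lie on chromosome 16, and OGN, OMD, ASPN and ECM2 lie together on chromosome 8. The files list these last 4 under a single interval, 83951574 to 84246549, which also holds IPPK, CENPP and LOC112447956, so reads of these genes may not be told apart where they overlap, and whether strand was used in counting is not given in the sources used here. Within that interval OGN and ECM2 fell, ASPN did not pass, and OMD stayed under 1 FPKM. On FPKM + 1, the log2 ratio of ASPN to OGN was −1.67, −1.91 and −1.94 in SP and −4.17, −3.47 and −2.04 in MP, without overlap (exact two-sided permutation p = 0.1). Without the added 1, MP replicate 3 lay within the SP range, so the lack of overlap depends on it. On FPKM + 1 the ratio of ASPN to ECM2 overlapped (−1.08, −1.38 and −0.54 in SP, −3.25, −2.01 and −1.09 in MP, p = 0.2 by the same exact test), as did that of OGN to ECM2 (p = 0.5, exact). This set of neighbouring pairs was chosen after values were seen.

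The other genes of the interval and its borders were mixed. IPPK, the kinase that makes inositol hexakisphosphate, did not pass, with a mean of 1.57 ± 0.719 FPKM for SP and 1.27 ± 0.470 FPKM for MP (SD, n = 3 each; limma adjusted p = 0.673). CENPP, a centromere protein, was below the filter, at 0.336, 0.471 and 0.183 FPKM in SP and 2.43, 1.23 and 0.837 FPKM in MP. Every SP value lay below every MP value, as for OGN and ECM2. The nearest tested genes outside the interval, NOL8 and BICD2, did not pass, with log2 fold changes of 0.31 and 0.06. On chromosome 5 the nearest tested non-member genes were ATP2B1, a calcium pump, which rose by 1.54 ± 0.22 (SE; limma adjusted p = 0.00324), and BTG1, which did not pass. On chromosome 16 BTG2 did not pass and ATP2B4, another calcium pump, rose by 0.98 (limma adjusted p = 0.0419; over the alternatives 0.0157 to 0.195, with 11 of 20 passing). On chromosome X HAUS7 did not pass and CCNQ fell (−1.10), and on chromosome 3 CPT2 did not pass and LOC100297152 fell (−1.17).

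Of the 8 other leucine-rich repeat proteins of the family, only TSKU passed the filter on low values. It encodes tsukushi, a secreted protein that binds growth factors, and was at 3.83, 4.56 and 5.73 FPKM in the SP libraries against 28.1, 19.2 and 15.5 FPKM in the MP libraries. Its log2 fold change of −1.91 ± 0.28 (SE) passed (limma adjusted p = 0.00358), a size close to that of BGN and ECM2. KERA, keratocan of the cornea, was at 0.218, 0.136 and 0.358 FPKM in SP and 5.11, 0.975 and 0.903 FPKM in MP, and PODNL1, the relative of podocan, at 0.314, 0.264 and 0.330 and at 2.53, 0.998 and 2.67 FPKM. Both were below the filter, with SP under MP in every library. CHAD, chondroadherin of cartilage, overlapped between groups at 0.275 to 1.44 FPKM, and EPYC, OPTC, NYX and CHADL stayed under 0.25 FPKM in every library. EPYC and NYX were listed at 0 in all SP libraries and in most MP libraries. CHADL went the other way from KERA and PODNL1, with every SP value above every MP value, and was likewise below the filter.

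The collagens that SLRPs bind fell with them in most cases. Of 11 tested 7 fell, 1 rose and 3 did not pass (median −2.33), beside 18.7% lower and 20.5% higher over all tested genes. COL1A2 and COL3A1, chains of the main fibrils, went from 636 ± 583 to 56.3 ± 10.2 FPKM and from 604 ± 613 to 36.0 ± 17.8 FPKM between MP and SP (SD, n = 3 each; limma adjusted p = 0.00638 and 0.00709). COL6A1 and COL6A2, of the beaded filaments that decorin and biglycan bind, had log2 fold changes of −3.38 and −3.19. COL1A1 did not pass (−2.08 ± 0.74 SE; limma adjusted p = 0.0565), nor did COL5A2 and COL14A1. COL12A1, a collagen on the fibril surface to which decorin and fibromodulin bind, rose by 1.14 ± 0.28 (SE; limma adjusted p = 0.0167); COL1A1, COL5A2, COL14A1 and COL12A1 are named after their values were seen.

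Other proteoglycan core proteins were mixed. Of 16 tested 9 fell, 1 rose and 6 did not pass (median −1.25), beside 18.7% lower and 20.5% higher over all tested genes. PRG4 was under 1 FPKM in every SP library, so that the filter fixed its direction. SPOCK1 (testican), TGFBR3 (betaglycan, a TGF-beta co-receptor) and PRG4 (lubricin) had log2 fold changes of −3.33, −1.82 and −2.70. HSPG2, the basement membrane proteoglycan perlecan, rose instead, from 3.41 ± 1.99 FPKM in MP to 19.4 ± 4.55 FPKM in SP (SD, n = 3 each), by 2.29 ± 0.38 log2 units (SE; limma adjusted p = 0.00496).

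The enzymes that build the chains did not follow the core proteins as a list. Of 20 tested genes of chondroitin and dermatan sulfate synthesis 6 fell, 2 rose and 12 did not pass (median −0.29), beside 18.7% lower and 20.5% higher over all tested genes. CHPF, the chondroitin polymerizing factor, was at 2.76, 3.33 and 3.29 FPKM in SP and 54.4, 17.3 and 16.5 FPKM in MP (−2.66 ± 0.44 SE; limma adjusted p = 0.00508). PXYLP1, a phosphatase that releases chain growth after the first sugars, CHST14, the sulfotransferase of dermatan sulfate, and CSGALNACT2, which starts the chondroitin chain, had log2 fold changes of −2.28, −1.28 and −0.98; PXYLP1 was under 1 FPKM in every SP library, and CSGALNACT2 lost its call in all but 13 of 19 alternatives, with limma adjusted p between 0.0117 and 0.13. The enzymes that rose, named after their values were seen, were XYLT1, the xylosyltransferase that attaches the first sugar to the core (1.66 ± 0.42 SE; limma adjusted p = 0.0188), and CHST7, a chondroitin sulfotransferase (1.42 ± 0.44 SE; adjusted p = 0.0368). Of 7 tested genes of keratan sulfate synthesis and tyrosine sulfation, B3GNT2 and B4GALT1 rose by 1.88 and 0.85, TPST1, which sulfates tyrosines such as those of fibromodulin and lumican, had −1.36, and 4 did not pass. B3GNT2, B4GALT1 and TPST1 passed in 13, 12 and 11 of the 20 alternatives, where limma adjusted p ran between 0.00529 and 0.16, 0.0141 and 0.216, and 0.0101 and 0.143.

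Of 10 tested proteases and enhancers that process SLRPs or their collagens, 5 fell, 2 rose and 3 did not pass (median −1.0). For comparison, 18.7% of all tested genes were called lower and 20.5% higher in SP. PCOLCE2 and PCOLCE, enhancers of procollagen processing, had log2 fold changes of −3.99 and −2.72, GZMB, a lymphocyte protease that can cut decorin, −6.18, and ADAMTS5, under 1 FPKM in every SP library, −1.87. ADAMTS1 and ADAMTS4, proteases of large proteoglycans, rose by 1.62 and 1.61 (limma adjusted p = 0.0336 and 0.042), and are named after their values were seen.

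Of 15 tested receptors and growth factors that SLRPs bind, 6 fell, 4 rose and 5 did not pass (median 0.09). Among all tested genes, the shares called lower and higher in SP were 18.7% and 20.5%. CD44, TGFB3, P2RX4 and LRP1 had log2 fold changes of −2.51, −1.36, −1.12 and −1.77. The 4 that rose, named after their values were seen, were receptors: KDR (2.95 ± 0.68 SE) and MET (1.55 ± 0.52), receptor kinases to which decorin binds, IGF1R (1.22 ± 0.29), and TLR4 (1.60 ± 0.50), which biglycan activates (limma adjusted p = 0.0143, 0.0465, 0.0162 and 0.0366). KDR also stood in the endothelial list, whose sum was higher in SP.

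**Figure D5:**
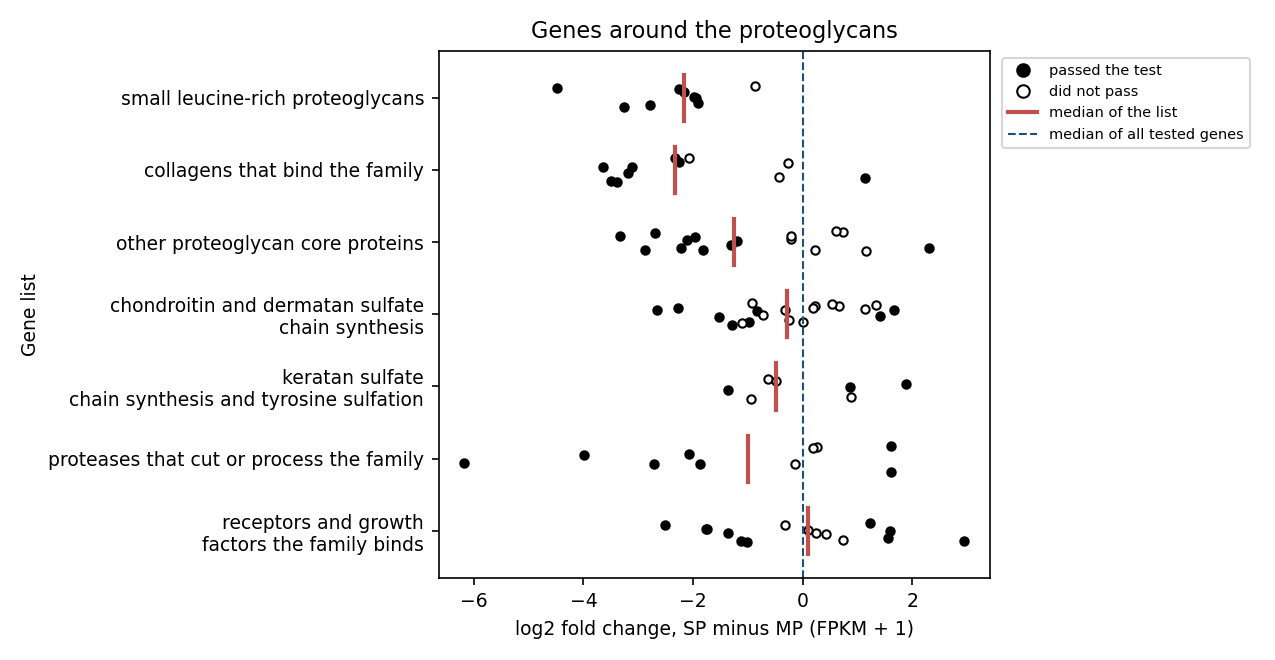
Log2 fold change (SP minus MP, on FPKM + 1) of each tested SLRP and of each tested gene in 6 related lists; filled points passed the test, open points did not, red bars are list medians and the dashed line the median of all tested genes. The SLRP points all lie below 0, whereas each of the 6 related lists has points on both sides of it.

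The genes outside the family whose profile over the 6 libraries was most like that of DCN were found by the root mean square difference of log2(FPKM + 1), each gene centred on its own mean. They were MYOC (myocilin, 0.249), RORB (a nuclear receptor, 0.252), SCARA5 (a ferritin receptor, 0.266), OLFML3 (an olfactomedin-like matrix protein, 0.286) and PCOLCE2 (0.323), in log2 units. MYOC was at 0.648, 1.19 and 1.26 FPKM in the SP libraries against 70.7, 55.0 and 26.0 FPKM in the MP libraries. SCARA5 was at 2.46, 3.69 and 5.60 FPKM in SP and at 174, 155 and 62.7 FPKM in MP. Its order of the MP libraries was that of DCN, which the choice by likeness to DCN favours. Among the members themselves the closest profiles by this measure were those of BGN and ECM2 (0.289) and of BGN and OGN (0.310).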

How the data were processed

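The authors deposited FPKM values per gene for each of the 6 libraries, with no scaling between libraries stated, per the file headers. Per the labels' protocols, RNA came from sorted cells through a micro column kit and a stranded mRNA library kit. Per the submitters' processing notes, the named tools are cutadapt 2.5 and HISAT2 2.1.0 and the build ARS-UCD1.2; the FPKM tool, the annotation version and the strand setting were not given in the sources used here.

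Sample titles gave each library its group and number. The column headers carry a different number for replicate 3 of each population, and the titles were followed. A row pooling many symbols without a gene name held 0.185% to 1.91% of FPKM and was left out. The test used limma 3.58.1 (R 4.3.3) on log2(FPKM + 1) for genes that reached 1 FPKM in 3 or more of the 6 libraries (trend, two-sided, Benjamini-Hochberg over all 12127, threshold 0.05), a scale that understates the change of low genes. Single values were tested by exact permutation of libraries. The fit was tested on simulated data. Starts are counted from 1; chromosome names come from the symbols' places in the RefSeq gene table of ARS-UCD2.0, which gave no coordinates.

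Members and gene lists were chosen with earlier results of these data known. Named genes were the members, the other family genes, up to 4 called genes of each list by smallest p (or the 2 highest, where none was called), the 5 most like DCN, and the nearest tested genes beside each locus. Among the listed genes SPOCK3, CHST5 and CCN4 were not matched.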

Additional observations from a re-analysis of the deposited data

How the results depend on the processing

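The count of 8 members lower in SP was the same under every single-library omission, pseudocount, filter and scaling tried, and the log2 fold changes of the 9 tested members kept their direction in all 20 alternatives. With 2 libraries per group it was 5 without replicate number 1 and 1 without replicate number 2 (8 without number 3). The 4759 calls over all genes were 2481, 3137 and 3147 without SP replicate 1, 2 or 3, 2601, 2421 and 4455 without MP replicate 1, 2 or 3, and 763, 351 and 2711 without replicate numbers 1, 2 and 3. Rescaling every library to the same FPKM sum made 68.0% of calls higher in SP, against 52.3%, and shifted the median of all genes to 0.19. The DCN share difference ran from −30.1 to −22.8 points and the DCN difference relative to the fibroblast markers from −1.57 to −0.97 without a single library.

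Same-numbered libraries did not deviate together in all pairs (r across genes 0.105, 0.533 and −0.085), and r between different numbers ran from −0.42 to 0.279. The labels do not state a pairing, and these values do not settle whether the numbers pair the libraries. With the replicate number as a block 4793 genes and 9 members passed, ASPN being added (limma adjusted p = 0.0288), and the differences of DCN stayed at −25.5 points and −1.33.

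Directions turned only for 4 neighbouring genes that did not pass and for 3 values of LUM and PODN. BTG1 (−0.06) was at 0.17 with the sum rescaled and from −0.35 to 0.24 with libraries left out, HAUS7 (−0.05) at 0.14 rescaled and from −0.31 to 0.16, BTG2 (0.20) from −0.23 to 0.62, and BICD2 (0.06) at −0.013 with quantile normalization, −0.019 with upper quartile scaling and from −0.022 to 0.15 with libraries left out. The LUM level relative to the markers (−0.11) was 0.55 at a pseudocount of 0.1, 0.22 without SP replicate 1, and ranged from −0.44 to 0.27 without a single library. Shares without DCN turned for LUM (−16.5) and PODN (−2.27). The cause was not tested. Depth limits OMD and the untested family genes.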
